A study of Mus musculus with 18 samples.

Results

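The insulin-like growth factor 1 (IGF1) axis was followed here in primary mouse embryonic fibroblasts (MEFs) through 9 genes. They are the ligand *Igf1*, its receptor *Igf1r*, the IGF binding protein genes *Igfbp2*, *Igfbp3*, *Igfbp4*, *Igfbp5*, *Igfbp6* and *Igfbp7*, and *Pappa*, which encodes a protease of binding proteins. They were taken by symbol from the 51912 genes of the count table, with earlier results of these data known. All 9 were among the 15710 genes with enough reads to test.

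RNA-seq was performed on MEFs in which *Pole4*, encoding an accessory subunit of DNA polymerase epsilon, and *Trp53*, encoding the tumor suppressor TRP53, had been inactivated in the germline alone or together. The *Trp53*+/+ (wild-type), *Trp53*+/- and *Trp53*-/- states were each examined on a *Pole4*+/+ and on a *Pole4*-/- background, which makes 6 genotypes, and every genotype was represented by 3 libraries. Wild-type MEFs without further mention are *Pole4*+/+ *Trp53*+/+. The embryos came from crosses of *Pole4*+/- *Trp53*+/- mice on C57BL/6 and were taken at mid-gestation, with the head, heart and liver removed. Cells of every genotype were used at passage 1 and had been kept in medium with 15% fetal bovine serum and in 5% oxygen. Such cultures are mixed populations of mesenchymal cells from whole bodies, and the serum itself contains IGFs and their binding proteins. Nothing in the labels ties a library to its own embryo, so the p-values measure the spread between these libraries. Each *Pole4*-/- genotype held libraries of both sexes (below) and so of more than 1 embryo, while in the *Pole4*+/+ genotypes, each of a single sex, the spread may be technical.

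IGF1 is a secreted peptide that signals through the receptor tyrosine kinase IGF1R to PI3K, AKT and MAP kinases, and it drives growth and survival of fibroblasts. In the extracellular space most IGF is held by binding proteins, which may store it, carry it or keep it from the receptor. PAPP-A (pappalysin, encoded by *Pappa*) cleaves binding proteins, IGFBP4 above all, and so frees the ligand, while stanniocalcins inhibit PAPP-A. Transcript levels, as measured here, say nothing of secretion, cleavage or receptor activity.

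The 18 libraries held 9535971 to 35319918 counts, and ribosomal RNA genes took 0.968% to 42.5% of them. As a check of the labels, *Trp53* lay at 8.65 to 12.1 CPM (read counts relative to the library's total, scaled between libraries by the trimmed mean of M-values, TMM) in *Trp53*-/- MEFs, at 48.4 to 59.6 in *Trp53*+/- MEFs and at 64.2 to 96.1 in *Trp53*+/+ MEFs. *Pole4* lay at 9.26 to 11.99 CPM in *Pole4*-/- and at 14.2 to 26.4 in *Pole4*+/+ MEFs. The *Pole4*-/- libraries thus kept a substantial part of the reads, with genotype means of 10.3 to 11.5 CPM beside at most 22.0 CPM. The alleles are *Pole4* tm1(KOMP)Vlcg and *Trp53* tm1Brd, and which part of *Pole4* is deleted is not given in the sources used here, so the level differs with the label but does not by itself show a null allele. All 10 fibroblast markers were at 1 CPM or more in the mean of every genotype, and the hepatocyte markers *Alb*, *Ttr* and *Hnf4a* were at 0 throughout. By *Xist* and Y-linked genes 11 libraries were female and 7 male. All *Pole4*+/+ *Trp53*+/+ and *Pole4*+/+ *Trp53*-/- libraries were female, all *Pole4*+/+ *Trp53*+/- libraries were male, and the *Pole4*-/- genotypes were mixed. A pair of libraries stood apart. *Pole4*+/+ *Trp53*-/- replicate 1 held Y-linked reads at 9.08 CPM beside *Xist* at 1081 CPM, whereas the other female libraries held at most 0.337 CPM. It is counted as female here, and whether it is a mixture or carries a wrong label was not resolved, so that the *Pole4*+/+ *Trp53*-/- estimates that rest on it share this doubt. *Pole4*-/- *Trp53*+/+ replicate 3 had the 42.5% share of ribosomal RNA. High shares were not confined to it. *Pole4*-/- *Trp53*-/- libraries held 24.7% to 30.0% and *Pole4*+/+ *Trp53*-/- libraries 1.82% to 13.1%, without overlap. The range was 7.11% to 42.5% in *Pole4*-/- *Trp53*+/+ and 5.81% to 11.25% in wild-type libraries. The part of these shares in the members' differences was not tested. The members' calls that rest on either library that stood apart, the pathway calls and the correlations across libraries are given with and without them. Correlations within genotypes, pathway counts at an unadjusted p, some pathway genes that were not called and marker sums are given for all libraries.

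Per kilobase of exon and averaged over all libraries, *Igfbp7* was the most abundant member at 218 CPM per kb, followed by *Igfbp2* at 118, *Igfbp5* at 44.6 and *Igfbp4* at 39.1. *Pappa* (18.1 CPM per kb), *Igf1r* (14.7) and *Igfbp6* (12.8) were intermediate. *Igfbp3* (5.90) and *Igf1* itself (2.29) were the lowest of the 9. *Igfbp7* came first and *Igfbp3* and *Igf1* came last in the mean of each genotype, but the order between them turned with genotype. *Igfbp4* (27.0 CPM per kb) was above *Igfbp5* (21.3) in wild-type MEFs and likewise in *Pole4*-/- *Trp53*-/- MEFs (44.8 and 22.6). In *Pole4*+/+ *Trp53*-/- MEFs *Igfbp5* (67.5) was above *Igfbp2* (61.1) and *Igfbp6* (16.8) above *Igf1r* (13.4) and *Pappa* (12.7). The order in that genotype rested on replicate 1, at 888 CPM of *Igfbp5* beside 192 and 137 in the other libraries, and at 26.2 CPM of *Igfbp6* beside 15.1 and 14.8. The members varied to very different extents. *Igfbp5* spanned 11.5-fold and *Igfbp3* 10.3-fold between the lowest and the highest library, while *Igf1r* spanned 1.46-fold. Both highest values were in *Pole4*+/+ *Trp53*-/- replicate 1, and without that library the spans were 5.99-fold for *Igfbp5*, 8.64-fold for *Igfbp3* and 1.44-fold for *Igf1r*. In bulk RNA, fewer cells that express a gene and less RNA per cell cannot be told apart.

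**Figure D1:**
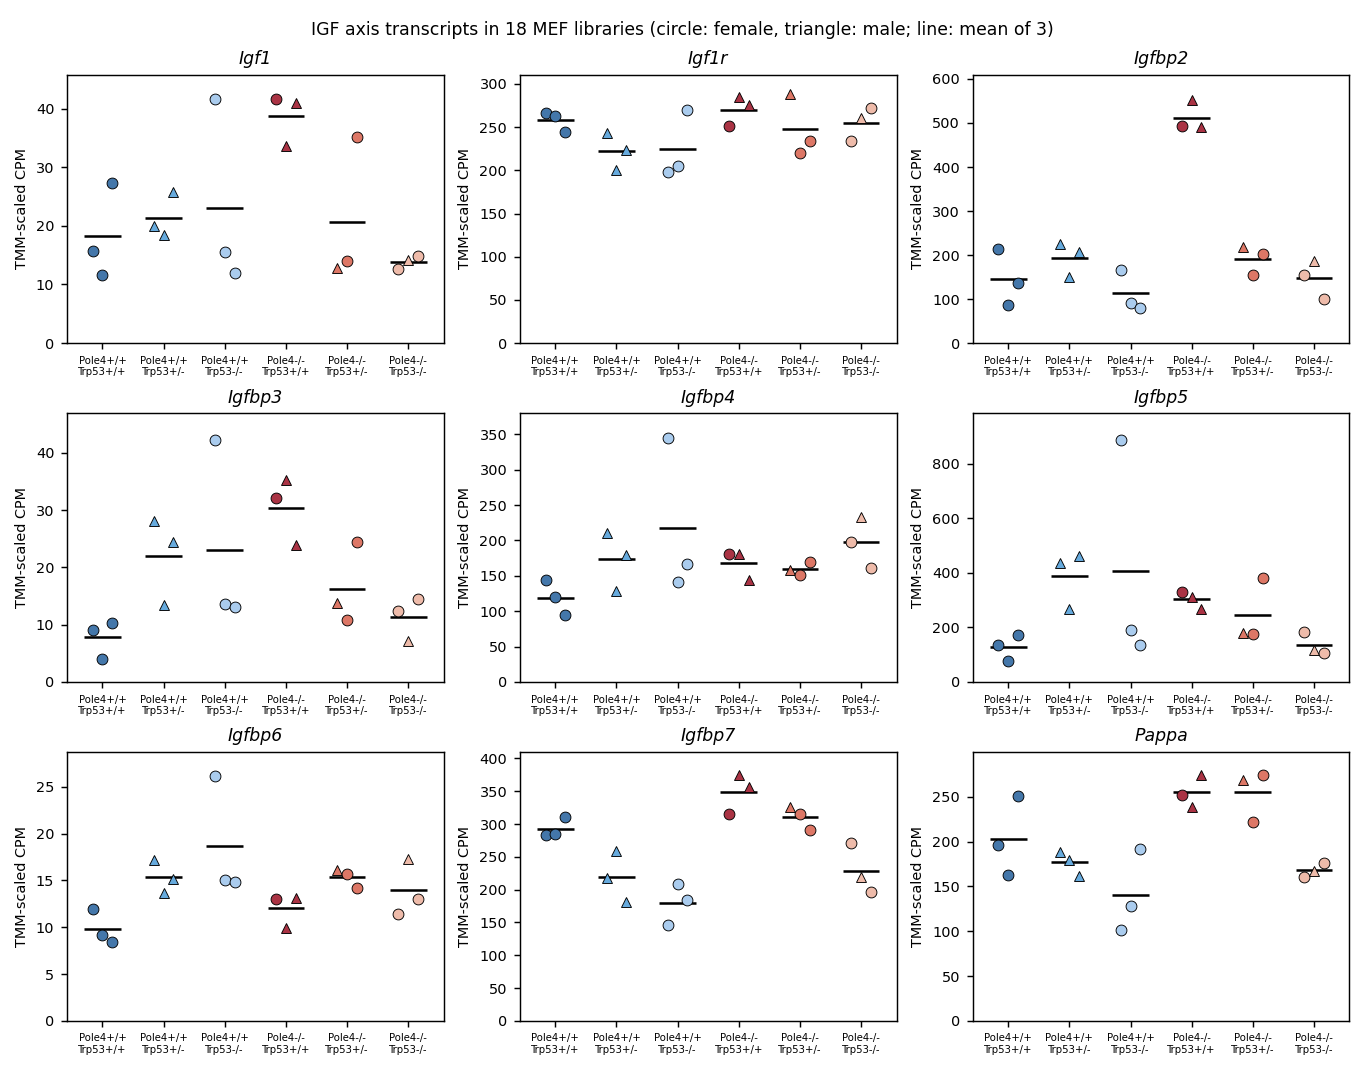
TMM-scaled CPM of the 9 members (y axes, linear, starting at 0) in the 6 genotypes (x axes), with 1 symbol per library, circles for female and triangles for male libraries, and a bar at the mean of 3. The *Pole4*-/- *Trp53*+/+ libraries lie at 490 to 552 CPM of *Igfbp2*, above the other 15 libraries, whereas the 18 libraries lie between 198 and 289 CPM of *Igf1r*.

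Loss of *Trp53* was compared with wild type separately in each *Pole4* background. In *Pole4*-/- MEFs 5 of the 9 members were called lower in *Trp53*-/- than in *Trp53*+/+ cells (edgeR quasi-likelihood test, Benjamini-Hochberg adjusted p under 0.05 over all genes tested), namely *Igf1*, *Igfbp2*, *Igfbp3*, *Igfbp7* and *Pappa*, and none was called higher. The background in this comparison was large, since 42.6% of all genes were called and 20.8% were called lower. The members' share was 55.6%, so that being called was nearly as common among all genes, and on 9 genes the share says little of the members as a group. The libraries of 6 members, *Igfbp5* being the sixth, lay entirely lower in *Trp53*-/- cells, as did those of 28.5% of all genes. The median log2 fold change of the members was -0.61, beside -0.02 over all genes. *Pole4*-/- *Trp53*+/+ replicate 3, the library richest in ribosomal RNA, was also left out. Without it *Igf1* (-1.44, edgeR adjusted p = 0.0444), *Igfbp2* (-1.82, 0.00205), *Igfbp3* (-1.57, 0.0379) and *Igfbp7* (-0.59, 0.0149) were still called and *Pappa* (-0.54, 0.0580) was not. In *Pole4*+/+ MEFs 2 of 9 members were called, *Igfbp6* higher and *Igfbp7* lower, with 4.6% of all genes called, 2.23% higher and 2.37% lower. The libraries of *Igfbp3* and *Igfbp6* lay entirely higher and those of *Igfbp7* entirely lower, as did those of 8.24% and 8.31% of all genes. The members' median was 0.36 there, beside 0.03 over all genes, and 6 of 9 members were at an unadjusted p under 0.05, as were 19% of all genes. These values depended on *Pole4*+/+ *Trp53*-/- replicate 1. Without it *Igf1*, whose estimate was that median, was at -0.42. *Igfbp3* (0.74), *Igfbp4* (0.34), *Igfbp5* (0.33) and *Igfbp6* (0.56) then had smaller estimates than with all libraries. *Igfbp7* was thus the member called in both backgrounds, which share no library.

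**Figure D2:**
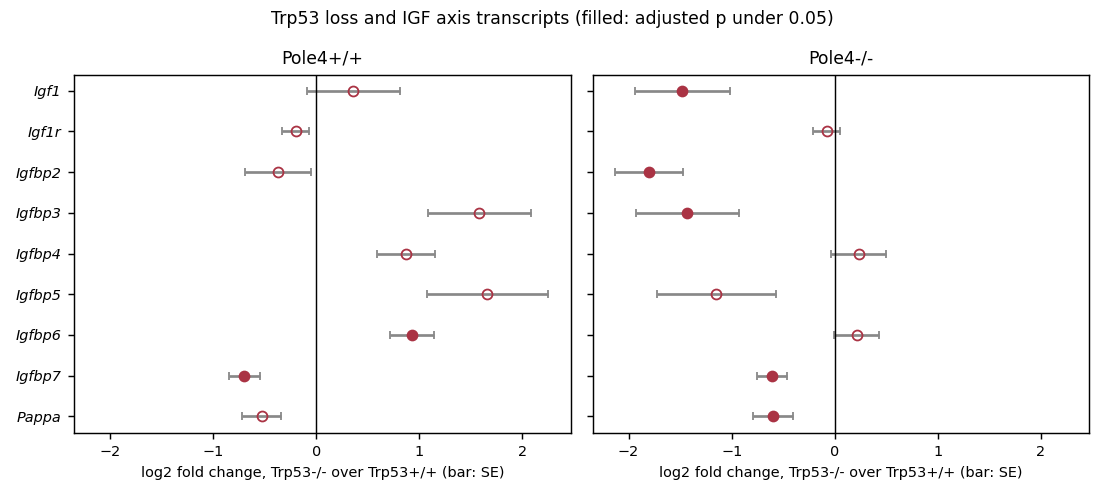
Log2 fold change of *Trp53*-/- over *Trp53*+/+ (x axes) for each member (y axis) in *Pole4*+/+ (left) and *Pole4*-/- MEFs (right), with bars of 1 SE and filled symbols for an adjusted p under 0.05. *Igfbp7* lies at -0.70 on the left and at -0.61 on the right, while *Igfbp3* lies at 1.58 on the left and at -1.43 on the right.

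*Igf1* (chromosome 10, 87858265 to 87937042, plus strand, GRCm38) encodes the ligand. In *Pole4*-/- MEFs it was at 41.6, 33.6 and 41.0 CPM in the *Trp53*+/+ libraries and at 12.7, 14.2 and 14.9 CPM in the *Trp53*-/- libraries. The groups did not overlap, and the level fell 2.79-fold (log2 fold change -1.48 ± 0.46 SE, n = 3 per genotype, edgeR adjusted p = 0.0196). This call was lost without *Pole4*-/- *Trp53*-/- replicate 1 (-1.41, adjusted p = 0.0617) or replicate 3 (-1.52, 0.0513), or without *Pole4*-/- *Trp53*+/+ replicate 1 (-1.40, 0.0543). It was lost too when libraries were scaled by their totals alone (-1.51, 0.0701) or when genes with low counts were kept (-1.43, 0.0654). In *Pole4*+/+ MEFs *Igf1* was at 15.8, 11.7 and 27.3 CPM in wild-type libraries and at 41.7, 15.5 and 11.96 CPM in *Trp53*-/- libraries. These groups overlapped (0.36 ± 0.45, adjusted p = 0.746), and without *Pole4*+/+ *Trp53*-/- replicate 1, the library at 41.7 CPM, the estimate was -0.42 (adjusted p = 0.557). The *Trp53*+/- libraries were at 19.9, 18.4 and 25.7 CPM in *Pole4*+/+ and at 12.8, 14.0 and 35.1 CPM in *Pole4*-/- MEFs. Ordered by mean, *Pole4*-/- *Trp53*+/+ MEFs were highest (38.7 ± 4.41 CPM, SD) and *Pole4*-/- *Trp53*-/- MEFs lowest (13.9 ± 1.13 CPM), and every pair of neighbors in this order overlapped.

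*Igf1r* (chromosome 7, 67952827 to 68233668, plus strand) encodes the receptor through which IGF1 signals. It was not called in any of the 9 comparisons. Its levels were 267, 262 and 244 CPM in wild-type MEFs, 198, 205 and 270.2 CPM in *Pole4*+/+ *Trp53*-/- MEFs, 251, 284 and 275 CPM in *Pole4*-/- *Trp53*+/+ MEFs, and 233, 260.4 and 272 CPM in *Pole4*-/- *Trp53*-/- MEFs. Loss of *Trp53* gave a log2 fold change of -0.20 ± 0.13 (edgeR adjusted p = 0.432) in *Pole4*+/+ and of -0.08 ± 0.13 (adjusted p = 0.641) in *Pole4*-/- cells. All neighbors in the order of the 6 genotype means, from 222 to 270.2 CPM, overlapped.

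*Igfbp2* (chromosome 1, 72824503 to 72852474, plus strand) encodes a binding protein abundant in embryonic tissues. It set *Pole4*-/- *Trp53*+/+ MEFs apart from the other genotypes. There it was at 492, 552 and 490 CPM, whereas the other 15 libraries lay between 80.3 and 225 CPM. In wild-type MEFs it was at 214, 87.6 and 137 CPM, and the level in *Pole4*-/- *Trp53*+/+ cells was 3.49-fold higher (log2 fold change 1.80 ± 0.33, edgeR adjusted p = 0.0203). Against the same *Pole4*-/- *Trp53*+/+ libraries, the level was 3.48-fold lower in *Pole4*-/- *Trp53*-/- MEFs (155, 187 and 99.6 CPM, -1.80 ± 0.33, adjusted p = 0.000639). It was 2.66-fold lower in *Pole4*-/- *Trp53*+/- MEFs (218, 156 and 202 CPM, -1.41 ± 0.32, adjusted p = 0.0299). These 3 comparisons share the high libraries and are not independent of each other. In *Pole4*+/+ MEFs the *Trp53*-/- libraries were at 166, 91.8 and 80.3 CPM and the *Trp53*+/- libraries at 225, 150.2 and 207 CPM, and both overlapped wild type (-0.37 ± 0.32, adjusted p = 0.601, for *Trp53*-/-). The neighbor below *Pole4*-/- *Trp53*+/+ in the order of means was *Pole4*+/+ *Trp53*+/- (194 ± 39.1 CPM), and this step was the sole step of that order without overlap.

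The fall of *Igfbp2* on loss of *Trp53* in *Pole4*-/- MEFs was called under each of the 6 alternatives that keep all libraries and without any single library. The rise on loss of *Pole4* was called without *Pole4*+/+ *Trp53*+/+ replicate 1 or 3 and without *Pole4*-/- *Trp53*+/+ replicate 1, but not without *Pole4*-/- *Trp53*+/+ replicate 2 (1.74, adjusted p = 0.0910) or 3 (1.83, 0.0736) or *Pole4*+/+ *Trp53*+/+ replicate 2 (1.54, 0.109). Wild-type libraries were all female, and 2 of the 3 *Pole4*-/- *Trp53*+/+ libraries were male. With log2 *Xist* as a covariate the estimate was 1.63 (adjusted p = 0.131), and no gene of the 15710 was called in that fit. The female *Pole4*-/- *Trp53*+/+ library was at 492 CPM, against 87.6 to 214 CPM in the female wild-type libraries, and a part of sex in the difference was not tested beyond this. In *Trp53*+/- cells *Igfbp2* was not called lower without any of the 6 libraries compared (-1.50 to -1.28, edgeR adjusted p = 0.0509 to 0.180). Scaling by library totals alone (-1.10, 0.0765), keeping low counts (-1.35, 0.0659) and the *Xist* covariate (-1.32, 0.0853) each ended that call.

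*Igfbp3* (chromosome 11, 7206086 to 7213923, minus strand) encodes the main IGF carrier of serum and is a textbook transcriptional target of TRP53 in human cells. Its level was lowest in wild-type MEFs, at 9.01, 4.08 and 10.3 CPM. In *Pole4*-/- *Trp53*+/+ MEFs it was at 32.0, 35.3 and 23.8 CPM, and this was 3.91-fold above wild type (1.97 ± 0.50, edgeR adjusted p = 0.0455). The *Pole4*-/- *Trp53*-/- libraries were at 12.4, 7.07 and 14.5 CPM, 2.70-fold below *Pole4*-/- *Trp53*+/+ (-1.43 ± 0.50, adjusted p = 0.0310). In *Pole4*+/+ MEFs the direction was the opposite, with 42.3, 13.6 and 13.02 CPM in the *Trp53*-/- libraries. All of these lay above wild type, with a log2 fold change of 1.58 ± 0.50 that did not pass the test (adjusted p = 0.0879), although DESeq2 called it (1.56, adjusted p = 0.0130). The *Trp53*+/- libraries were at 28.0, 13.5 and 24.5 CPM in *Pole4*+/+ MEFs, also without overlap with wild type (2.83-fold, adjusted p = 0.225), and at 13.8, 10.8 and 24.3 CPM in *Pole4*-/- MEFs.

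The calls of *Igfbp3* were sensitive to single libraries. The fall in *Pole4*-/- MEFs was lost without *Pole4*-/- *Trp53*-/- replicate 1 (-1.50, adjusted p = 0.0642) or 2 (-1.18, 0.110), and without *Pole4*-/- *Trp53*+/+ replicate 1 (-1.38, 0.0734) or 2 (-1.31, 0.0828). It was lost with scaling by library totals alone (-1.48, 0.110) and with low counts kept (-1.39, 0.0981). The rise on loss of *Pole4* was lost without any of the 6 libraries compared (1.66 to 2.19, adjusted p = 0.0542 to 0.205) and with *Xist* as a covariate (2.34, adjusted p = 0.136), with scaling by library totals alone (1.69, 0.0916) and with low counts kept (1.90, 0.0862). Without both libraries that stood apart it was called (2.11, 0.0133). The female *Pole4*-/- *Trp53*+/+ library was at 32.0 CPM, above the female wild-type libraries. In *Pole4*+/+ MEFs, leaving out *Trp53*-/- replicate 1 took the estimate from 1.58 to 0.74 (adjusted p = 0.293).

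The sequences before the annotated starts of *Igfbp2*, *Igfbp3* and *Igfbp7* are shown because these binding protein genes had the calls that came up in more than 1 comparison. They are the 250 bases upstream of the RefSeq transcription start on GRCm38.p6, read 5′ to 3′ on the gene's strand, and none overlaps an exon of its own gene in the GENCODE annotation. *Igfbp2* has 2 annotated starts, of which the upstream is shown. Capitals mark matches, on either strand, of GGGCGG, the core of a GC box to which SP-family factors bind. The window of *Igfbp2* is chr1:72824230-72824479 (plus strand), that of *Igfbp3* chr11:7213924-7214173 (minus strand) and that of *Igfbp7* chr5:77408046-77408295 (minus strand).
Igfbp2: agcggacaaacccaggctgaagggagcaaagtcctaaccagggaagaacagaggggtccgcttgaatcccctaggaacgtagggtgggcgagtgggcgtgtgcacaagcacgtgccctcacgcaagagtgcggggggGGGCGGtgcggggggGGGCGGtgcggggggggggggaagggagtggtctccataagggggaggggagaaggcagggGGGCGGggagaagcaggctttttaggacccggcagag
Igfbp3: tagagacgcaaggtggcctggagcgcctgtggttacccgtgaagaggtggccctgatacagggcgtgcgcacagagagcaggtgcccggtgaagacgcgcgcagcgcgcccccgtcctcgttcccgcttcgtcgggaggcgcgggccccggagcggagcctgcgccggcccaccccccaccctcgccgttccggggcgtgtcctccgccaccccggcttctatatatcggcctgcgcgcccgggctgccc
Igfbp7: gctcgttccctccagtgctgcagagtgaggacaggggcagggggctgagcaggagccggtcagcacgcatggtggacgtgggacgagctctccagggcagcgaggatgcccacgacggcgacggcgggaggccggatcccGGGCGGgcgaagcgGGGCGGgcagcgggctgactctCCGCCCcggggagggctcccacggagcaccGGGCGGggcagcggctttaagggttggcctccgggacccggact
GGGCGG occurred at -113, -98 and -37 in *Igfbp2*, counted from the start, at -110, -96, -74 and -44 in *Igfbp7*, and not in *Igfbp3*. Of the other members, *Igf1r* held it. It was present in 32.7% of 32851 windows of the same length across the genome. All 3 windows were rich in G and C (67.2%, 73.2% and 74%, beside a median of 52.4%). Windows were on hand for 8 of the 9 members. On either strand, the consensus half-site of TRP53 was present in 7.13% of all windows and in none of the members', TATAAA was in 12.4% of all windows and in those of *Igfbp4* and *Igfbp6*, and CCAAT was in 33.8% and in those of *Igf1* and *Igfbp6*. A motif match describes letters in a window and is not evidence of binding.

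*Igfbp5* (chromosome 1, 72857932 to 72874884, minus strand), a neighbor of *Igfbp2* on the chromosome, encodes a binding protein that also associates with extracellular matrix. It was called in no comparison by edgeR with all libraries. It was at 137, 77.2 and 171 CPM in wild-type MEFs and at 888, 192 and 137 CPM in *Pole4*+/+ *Trp53*-/- MEFs, where the library at 888 CPM was the one with Y-linked reads. The log2 fold change between them was 1.66 ± 0.59 (edgeR adjusted p = 0.125), and 0.33 (adjusted p = 0.647) without that library. On the *Pole4*-/- background the *Trp53*+/+ libraries, at 329, 310 and 269 CPM, lay above the *Trp53*-/- libraries, at 184, 118 and 106 CPM (-1.15 ± 0.58, adjusted p = 0.126). That difference was called by voom with quality weights (-1.09, adjusted p = 0.0152), and by edgeR without both libraries that stood apart (-1.23, 0.0304). The *Trp53*+/- libraries were at 435, 269 and 463 CPM in *Pole4*+/+ and at 180, 175 and 381 CPM in *Pole4*-/- MEFs.

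*Igfbp4* (chromosome 11, 99041244 to 99054392, plus strand) encodes the preferred substrate of PAPP-A and an inhibitor of IGF action. It was called in no comparison by edgeR with all libraries. In *Pole4*+/+ MEFs it was at 143, 120 and 94.0 CPM in wild-type libraries and at 345, 142 and 167 CPM in *Trp53*-/- libraries (0.87 ± 0.28, edgeR adjusted p = 0.0853), which overlapped narrowly. Without *Trp53*-/- replicate 1 the estimate was 0.34 (adjusted p = 0.280), and DESeq2 called it with all libraries (0.87, adjusted p = 0.0230). Without *Trp53*-/- replicate 2 edgeR called it (1.10, adjusted p = 0.0404). On the *Pole4*-/- background it was at 181, 181 and 144 CPM with *Trp53* and at 198, 233 and 162 CPM without (0.23 ± 0.27, adjusted p = 0.540). The *Trp53*+/- libraries lay between 129 and 211 CPM in both backgrounds. In the order of means, wild type (119 ± 24.8 CPM) was lowest and did not overlap its neighbor, *Pole4*-/- *Trp53*+/- (160 ± 9.38 CPM).

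*Igfbp6* (chromosome 15, 102144362 to 102149511, plus strand) encodes a binding protein with a preference for IGF2. It was at 11.9, 9.15 and 8.43 CPM in wild-type MEFs and rose 1.90-fold in *Pole4*+/+ *Trp53*-/- MEFs, to 26.2, 15.1 and 14.8 CPM, without overlap (0.93 ± 0.21, edgeR adjusted p = 0.0214). Without *Trp53*-/- replicate 1 the estimate was 0.56 and still called (adjusted p = 0.0407), and the call was lost without wild-type replicate 2 (0.87, adjusted p = 0.0844) or 3 (0.82, 0.121) and with scaling by library totals alone (1.05, 0.0625). On the *Pole4*-/- background the *Trp53*+/+ libraries (13.03, 9.93 and 13.1 CPM) and the *Trp53*-/- libraries (11.4, 17.3 and 13.1 CPM) overlapped (0.21 ± 0.22, adjusted p = 0.469). *Trp53*+/- libraries were at 17.2, 13.7 and 15.2 CPM in *Pole4*+/+ and at 16.1, 15.7 and 14.3 CPM in *Pole4*-/- MEFs. The former lay above wild type without passing the test (0.64 ± 0.22, adjusted p = 0.226).

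*Igfbp7* (chromosome 5, 77349240 to 77408041, minus strand) encodes a matrix-associated protein with low affinity for IGFs. Its level fell in *Trp53*-/- MEFs of both *Pole4* backgrounds. In *Pole4*+/+ MEFs it was at 283, 285 and 311 CPM in wild-type and at 146, 209 and 184 CPM in *Trp53*-/- libraries, 1.63-fold lower (-0.70 ± 0.15, edgeR adjusted p = 0.0118). It was at 316, 375 and 357 CPM in *Pole4*-/- MEFs with *Trp53* and at 271, 219 and 196 CPM without, 1.53-fold lower (-0.61 ± 0.15, adjusted p = 0.00391). Neither pair of groups overlapped. Leaving out any single library kept both calls (-0.83 to -0.61 and -0.75 to -0.51), and scaling by library totals alone ended the call in *Pole4*+/+ cells (-0.64, adjusted p = 0.0756). The difference between the 2 effects was 0.09 ± 0.21 on the log2 scale (adjusted p = 0.801). *Trp53*+/- libraries were at 217, 259 and 181 CPM in *Pole4*+/+ MEFs, below wild type without overlap (-0.42 ± 0.15, adjusted p = 0.255), and at 326, 316 and 292 CPM in *Pole4*-/- MEFs. *Igfbp7* and *Polr2b*, on the opposite strand, share 85 exonic bases, and reads there cannot be assigned to either gene without strand, whose use in counting is not stated.

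*Pappa* (chromosome 4, 65124174 to 65357509, plus strand) encodes the protease PAPP-A. It was at 252, 238 and 274 CPM in *Pole4*-/- MEFs with *Trp53* and at 161, 167 and 176 CPM without, and it fell 1.52-fold with no overlap (-0.60 ± 0.19, edgeR adjusted p = 0.0173). The call was lost without *Pole4*-/- *Trp53*-/- replicate 1 (-0.57, adjusted p = 0.0555) or *Pole4*-/- *Trp53*+/+ replicate 3 (-0.54, 0.0580), and with scaling by library totals alone (-0.62, 0.0602). In *Pole4*+/+ MEFs it was at 196, 162 and 251 CPM in wild-type and at 102, 128 and 192 CPM in *Trp53*-/- libraries, which overlapped (-0.53 ± 0.19, adjusted p = 0.114). Without *Pole4*+/+ *Trp53*-/- replicate 3 this difference was called (-0.84, adjusted p = 0.00782), as it was by voom with quality weights and all libraries (-0.48, adjusted p = 0.0340). The 2 estimates differed by -0.07 ± 0.26 (adjusted p = 0.895). *Pappa* was at 269, 222 and 274 CPM in *Pole4*-/- *Trp53*+/- MEFs, beside *Pole4*-/- *Trp53*+/+ at a log2 fold change of 0.00 ± 0.19 (adjusted p = 0.999), and at 189, 180 and 162 CPM in *Pole4*+/+ *Trp53*+/- MEFs.

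Heterozygous loss of *Trp53* was compared with *Trp53*+/+ in each background. In *Pole4*-/- MEFs 1 of 9 members was called, *Igfbp2* (above), with 5.12% of all genes called and 2.16% called lower, and the others lay between -0.91 and 0.35 (lowest adjusted p = 0.219). In *Pole4*+/+ MEFs no member was called by edgeR, with 0.904% of all genes called. There 4 were at an unadjusted p under 0.05, beside 10.2% of all genes (*Igfbp3*, *Igfbp5*, *Igfbp6* and *Igfbp7*), DESeq2 called 1 and voom with quality weights called 4. The libraries of 3 members lay entirely higher and those of 2 entirely lower, as did those of 10.2% and 10.1% of all genes. *Igfbp5* was among them, at 269 CPM or more in every *Trp53*+/- library and at 171 CPM or less in every wild-type library (1.60 ± 0.59, adjusted p = 0.301). In this comparison the heterozygous libraries were all male and the wild-type libraries all female, and genotype and sex cannot be told apart.

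Loss of *Pole4* was compared at each *Trp53* genotype. In *Trp53*+/+ cells 2 of 9 members were called, *Igfbp2* and *Igfbp3*, both higher in *Pole4*-/- cells, with 3.98% of all genes called and 1.29% called higher. *Igf1* was at 33.6 CPM or more in the *Pole4*-/- and at 27.3 CPM or less in the wild-type libraries (1.09 ± 0.46, edgeR adjusted p = 0.153), and voom with quality weights called it (1.25, adjusted p = 0.00372). The remaining members lay between 0.07 and 1.24 (lowest adjusted p = 0.194). All 9 estimates were above 0, and the libraries of 6 members lay entirely higher in *Pole4*-/- cells, as did those of 19.4% of all genes. Scaled by library totals alone, which moved the median of all genes to -0.28, 6 of the 9 estimates were above 0 and all 9 were above that median. Summed fibroblast markers were also apart here, at 16330 to 22000 CPM in wild-type and 24890 to 30960 CPM in *Pole4*-/- *Trp53*+/+ libraries, with *Fn1* (0.70, adjusted p = 0.0401) called of the 10. Summed epithelial markers were apart the other way, at 20.8 to 34.4 and 10.52 to 16.73 CPM, with none of 3 called. Their part in the members' differences was not tested.

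In *Trp53*+/- and in *Trp53*-/- cells loss of *Pole4* gave no member call by edgeR, and 0.00637% of all genes were called in either. In *Trp53*+/- cells 2 members were at an unadjusted p under 0.05, beside 5.51% of all genes, *Igfbp7* (0.51 ± 0.15, adjusted p = 0.499) and *Pappa* (0.53 ± 0.19, 0.695), and both lay entirely higher in *Pole4*-/- libraries, as did 6.26% of all genes. The other members lay between -0.66 and 0.16 there, DESeq2 called none and voom with quality weights called 1. In *Trp53*-/- cells the members at an unadjusted p under 0.05, beside 10.4% of all genes, were *Igfbp5* (-1.58 ± 0.59, adjusted p = 0.451) and *Igfbp7* (0.35 ± 0.15, 0.457), the former at -0.27 without *Pole4*+/+ *Trp53*-/- replicate 1, and DESeq2 and voom called none. The other members lay between -1.04 and 0.38 (lowest adjusted p = 0.482). No member's libraries were apart, beside 9.15% of all genes. As a mean over the *Trp53* genotypes, *Pole4*-/- MEFs had no member called by edgeR (0.439% of all genes called), with *Igfbp2* at 0.72 ± 0.18 (adjusted p = 0.110), *Igfbp7* at 0.37 ± 0.09 (0.0761) and *Pappa* at 0.37 ± 0.11 (0.149) at an unadjusted p under 0.05, beside 12.9% of all genes. DESeq2 and voom called these 3, the other members lay between -0.33 and 0.16 (lowest edgeR adjusted p = 0.461), and edgeR called *Igfbp2* (0.86, adjusted p = 0.0155) and *Igfbp7* (0.33, 0.0194) without *Pole4*+/+ *Trp53*-/- replicate 1.

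An interaction term compared the effect of *Trp53* loss in *Pole4*-/- cells with that in *Pole4*+/+ cells. No member was called by edgeR without a replicate block, with 0.331% of all genes called. At an unadjusted p under 0.05 were 5 members, as were 28.3% of all genes. They were *Igfbp3* (-3.01 ± 0.70, adjusted p = 0.0524), *Igfbp5* (-2.82 ± 0.82, 0.0705), *Igfbp2* (-1.42 ± 0.45, 0.0791), *Igf1* (-1.84 ± 0.65, 0.0967) and *Igfbp6* (-0.71 ± 0.31, 0.144), where a negative value means a lower ratio of *Trp53*-/- to *Trp53*+/+ in *Pole4*-/- cells. DESeq2 called the first 4 of these. The remaining 4 members lay between -0.64 and 0.12 (lowest adjusted p = 0.287). The estimates depended on *Pole4*+/+ *Trp53*-/- replicate 1. Without it they were -2.20 for *Igfbp3* (adjusted p = 0.0845), -1.50 for *Igfbp5* (0.168), -1.02 for *Igfbp2* (0.234), -1.08 for *Igf1* (0.337) and -0.37 for *Igfbp6* (0.451). Without *Pole4*+/+ *Trp53*-/- replicate 3, edgeR called *Igfbp3* (-3.29, adjusted p = 0.0148), *Igfbp5* (-3.25, 0.0178), *Igfbp2* (-1.62, 0.0299) and *Igf1* (-2.15, 0.0342). Without replicate 2 it called *Igfbp3* (-3.27, 0.0238) and *Igfbp5* (-3.15, 0.0338), and without wild-type replicate 3 it called *Igfbp3* (-3.25, 0.0475).

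The make-up of the binding protein transcripts, as shares of their summed level per kilobase of exon, differed between genotypes. *Igfbp7* made up 64.1% ± 7.61 (SD, n = 3) of it in wild-type MEFs and 42.8% ± 2.23 in *Pole4*-/- *Trp53*+/+ MEFs. *Igfbp2* made up 41.0% ± 0.564 in the latter, between 40.4% and 41.4% in each library, and at most 28.0% in any other library. *Igfbp4* made up 7.13% ± 1.48 in wild-type and 13.6% ± 2.97 in *Pole4*+/+ *Trp53*-/- MEFs, and 5.66% ± 0.705 and 12.8% ± 1.44 in the corresponding *Pole4*-/- MEFs, without overlap in either background. The levels of *Igfbp4* themselves overlapped in both. Shares of *Igfbp6* were apart likewise, at 2.32% ± 0.341 and 4.76% ± 0.268 in *Pole4*+/+ and at 1.62% ± 0.328 and 3.62% ± 0.899 in *Pole4*-/- MEFs. *Igfbp3* made up at most 2.85% in any library. In *Pole4*+/+ *Trp53*-/- replicate 1, *Igfbp5* reached 31.2%, beside 8.34% in the lowest library of that genotype. No test was run on these shares, which sum to 100% and so depend on each other.

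**Figure D3:**
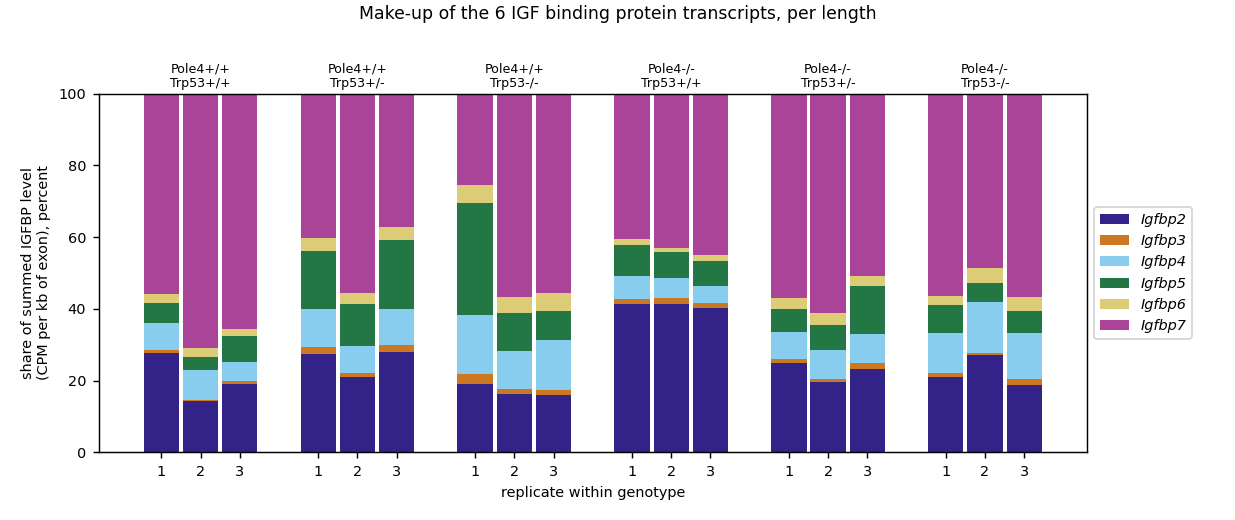
Share of each of the 6 binding protein transcripts in their summed level per kilobase of exon (y axis, percent) in each of the 18 libraries (x axis, grouped by genotype). *Igfbp2* takes 40.4% to 41.4% of the *Pole4*-/- *Trp53*+/+ bars and at most 28.0% of the others.

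Across the 18 libraries the levels of some members varied together, also within genotypes. Pearson's r of log2 CPM was 0.88 between *Igfbp3* and *Igfbp5* and 0.87 for their deviations from the genotype means (Spearman's rho 0.84, and r 0.82 without the 2 libraries farthest from the median of *Igfbp3*). For *Igf1* and *Igfbp5* r was 0.76 over all libraries and 0.87 within genotypes, and for *Igf1* and *Igfbp3* it was 0.78 in either form. Without the 2 libraries farthest from the median of *Igf1*, r was 0.69 with *Igfbp5* and 0.70 with *Igfbp3*. *Igfbp4* and *Igfbp6* had 0.77 and 0.76, with r at 0.41 without the 2 libraries farthest from the median of *Igfbp4*. *Igfbp7* and *Pappa* had 0.80 over all libraries but 0.28 within genotypes, and 0.70 without the 2 farthest from the median of *Igfbp7*. Over the 16 libraries without both that stood apart, the r over all libraries became 0.87, 0.73, 0.74, 0.61 and 0.68, in the order of the pairs. The r within genotypes were not recomputed without them. *Pole4*+/+ *Trp53*-/- replicate 1 was the highest of its genotype in *Igf1*, *Igfbp3*, *Igfbp4*, *Igfbp5* and *Igfbp6*, so their r within genotypes may rest on it. The pairs named are the leading ones of 36 and are given as descriptions. The points of each pair share the library, its RNA preparation and the genotype, and no p-value is attached.

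**Figure D4:**
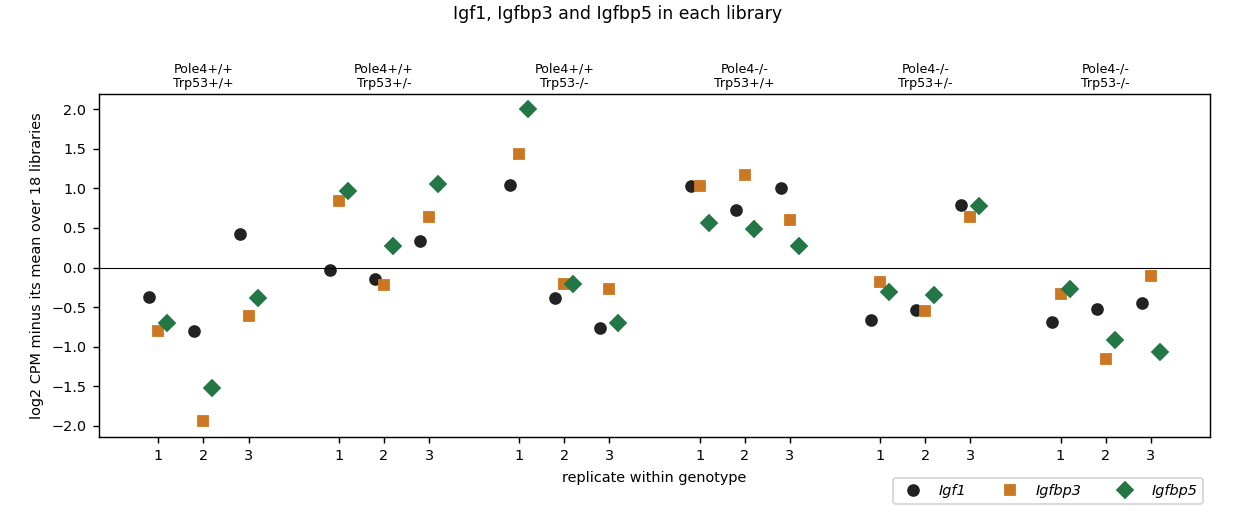
Log2 CPM of *Igf1*, *Igfbp3* and *Igfbp5* minus each gene's mean over all libraries (y axis) in each of the 18 libraries (x axis, grouped by genotype). All 3 symbols of *Pole4*+/+ *Trp53*-/- replicate 1 lie above 1 and those of *Pole4*-/- *Trp53*-/- all lie below 0.

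Genes most like each member over the 18 libraries were ranked by the same r. For *Igf1* they were *Hif1a* (0.95), *Smarca1* (0.95) and *Ogn* (0.94), for *Igfbp3* *Cped1* (0.94), *Cacna1g* (0.94) and *Mfap4* (0.93), and for *Igfbp5* *Cacna1g* (0.96), *Fbn2* (0.96) and *Ptgfr* (0.95). *Mfap4* and *Fbn2* encode components of elastic microfibrils, and *Ogn* encodes a small proteoglycan of the matrix. For *Igfbp2* they were *Ccdc80* (0.96), *Mfsd2b* (0.93) and *Atp2b4* (0.93), and for *Igfbp7* *Stbd1* (0.94), *Ldb3* (0.93) and *Atp6v1e1* (0.93). For *Pappa* they were *Col4a1* (0.92), *Ptk2b* (0.91) and *Mfge8* (0.90), and for *Igf1r* *Vcl* (0.91), *Atf6* (0.91) and *Fat1* (0.90). The nearest to *Igfbp4* were *Chrdl1* (0.84), *Trim2* (0.83) and *Lrp4* (0.82), and to *Igfbp6* *Rab6b* (0.81), *Tnfaip6* (0.80) and *Cask* (0.80). The r of these genes without both libraries that stood apart were 0.69 to 0.83 for *Igfbp4* and *Igfbp6* and 0.84 to 0.95 for the other 7 members.

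Of 44 other genes of the IGF pathway (ligands, receptors, adaptors, kinases, regulators of PAPP-A and IGF2 mRNA-binding proteins), 39 were tested. *Igfbp1* had no count in any library, and *Insrr*, *Igfals*, *Igfbpl1* and *Irs4* had at most 5. Loss of *Trp53* in *Pole4*-/- MEFs raised 11 and lowered 10 of them, 53.8% beside the 42.6% of all genes called, with a median log2 fold change of 0.03. In *Pole4*+/+ MEFs it lowered 1 and raised none, beside 4.6% of all genes. Without both libraries that stood apart it lowered 4 and raised 4, beside 15.7% of all genes, so the low count with all libraries depended on them, and in *Pole4*-/- MEFs it raised 10 and lowered 11, beside 43.6%. The gene called with all libraries in *Pole4*+/+ MEFs was *Rictor*, the defining subunit of the mTORC2 complex that phosphorylates AKT, and the one gene of the list called in both backgrounds with all libraries. Its mean went from 251 ± 41.3 to 125 ± 19.3 CPM in *Pole4*+/+ MEFs (SE of the log2 fold change 0.17, edgeR adjusted p = 0.00345) and from 277 ± 36.1 to 157 ± 41.4 CPM in *Pole4*-/- MEFs (-0.82 ± 0.17, adjusted p = 0.00163). Without both libraries that stood apart it was called in either background (-0.90, adjusted p = 0.00680, and -0.71, 0.00543).

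Several receptors, adaptors and regulators of PAPP-A from this list are named here, chosen after their values were seen. Loss of *Trp53* in *Pole4*-/- MEFs lowered *Insr*, encoding the insulin receptor (-0.78 ± 0.15, edgeR adjusted p = 0.00101), and *Pappa2*, encoding a related pappalysin that cleaves IGFBP3 and IGFBP5 (-2.33 ± 0.84, adjusted p = 0.0372). It raised *Stc2*, encoding a stanniocalcin that inhibits PAPP-A (0.85 ± 0.31, adjusted p = 0.0361), and *Irs2*, an adaptor of both receptors (0.82 ± 0.18, adjusted p = 0.00212). *Stc1*, the other stanniocalcin, was at 0.40 ± 0.30 (adjusted p = 0.310). In *Pole4*+/+ MEFs these genes lay between -0.22 for *Insr* and 1.59 for *Pappa2*, and none was called. Without both libraries that stood apart, *Insr* (-0.76), *Pappa2* (-2.39), *Stc2* (0.91) and *Irs2* (0.89) were called again in *Pole4*-/- MEFs (adjusted p = 2.3e-05 to 0.0455). In *Pole4*+/+ MEFs *Irs2* was then called (0.60, adjusted p = 0.00266), and *Pappa2* reversed to -0.83 (0.288). *Stc2* was also the gene of the list called on heterozygous loss of *Trp53* in *Pole4*-/- MEFs (1.41, adjusted p = 0.0256), and *Igf2bp1*, an RNA-binding protein of the IGF2 mRNA, was the gene called on loss of *Pole4* in *Trp53*+/+ MEFs (-0.50, adjusted p = 0.0450). Both were called without the libraries that stood apart (1.47, adjusted p = 0.0202, and -0.50, 0.00793), when 8 of 39 genes of the list were called in the former comparison, beside 12.5% of all genes, and 4 in the latter, beside 13.3%. In the other comparisons edgeR called 0 of the 39 with all libraries. At an unadjusted p under 0.05 were 7 on heterozygous loss of *Trp53* in *Pole4*+/+ MEFs, beside 10.2% of all genes, and 10 for the interaction, beside 28.3%. For loss of *Pole4* there were 1 in *Trp53*+/- cells, 4 in *Trp53*-/- cells and 2 in the mean over genotypes, beside 5.51%, 10.4% and 12.9%. Leaving out the libraries that stood apart added a call of *Ghr*, the growth hormone receptor, on heterozygous loss in *Pole4*+/+ MEFs (-0.59, adjusted p = 0.0434, beside 1.88% of all genes) and of *Irs2* in the mean effect of *Pole4* loss (-0.22, 0.0471, beside 4.22%). Among the imprinted genes of the pathway, *Igf2r*, the clearance receptor of IGF2, fell on loss of *Trp53* in *Pole4*-/- MEFs from 588 ± 23.3 to 232 ± 44.3 CPM (-1.34 ± 0.22, adjusted p = 0.000282), and *Igf2* (2040 ± 431 and 1871 ± 516 CPM, -0.12 ± 0.31) and *Grb10* (-0.17 ± 0.11) were not called. *Igf2r* without both libraries that stood apart was called in *Pole4*-/- (-1.37, adjusted p = 0.000255) and in *Pole4*+/+ MEFs (-0.75, 0.0413; -0.51, 0.218 with all libraries).

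**Figure D5:**
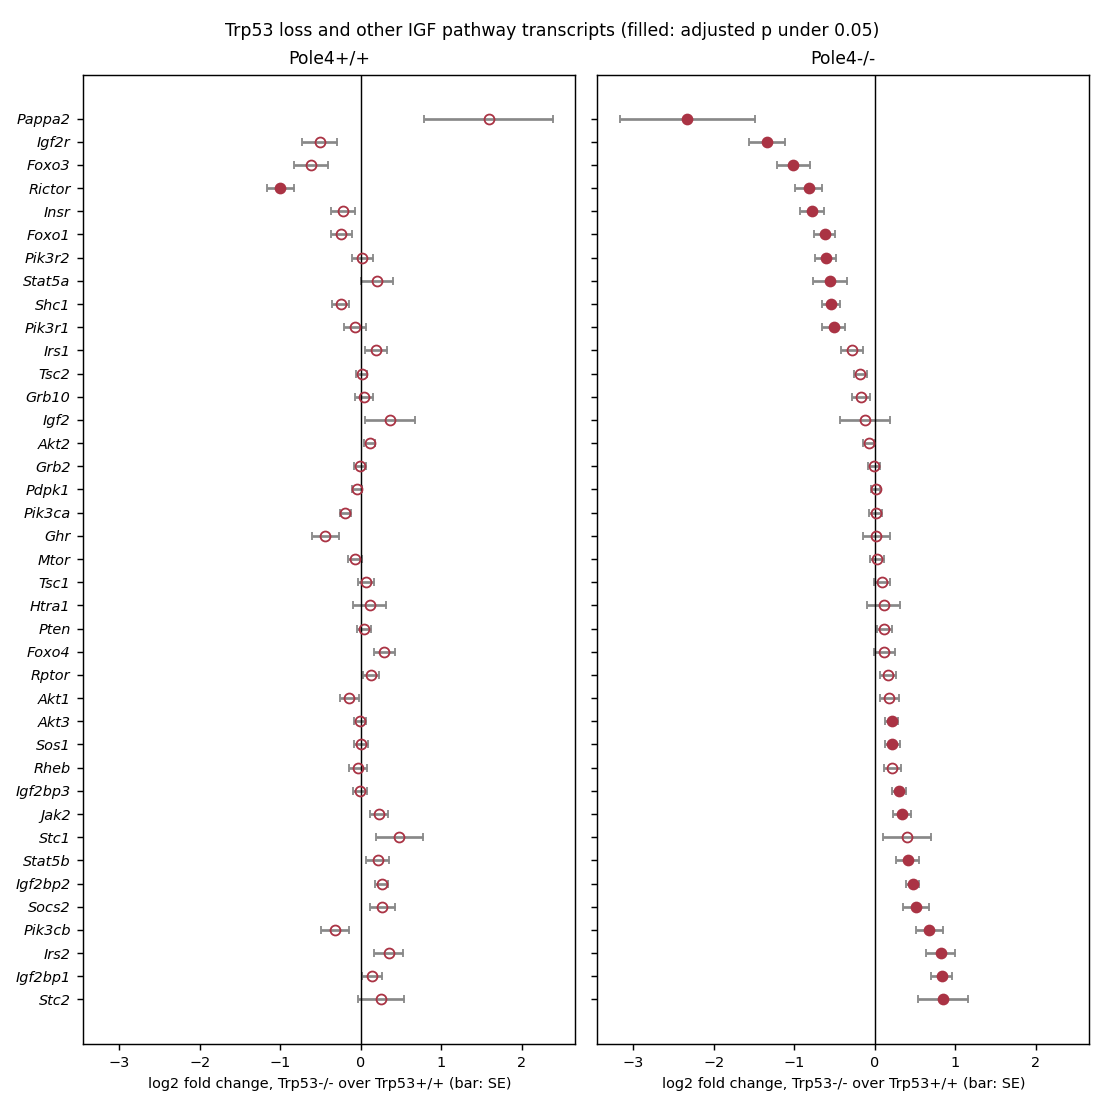
Log2 fold change of *Trp53*-/- over *Trp53*+/+ (x axes) for the 39 tested pathway genes (y axis, ordered by the value in *Pole4*-/- MEFs) in *Pole4*+/+ (left) and *Pole4*-/- MEFs (right), with bars of 1 SE and filled symbols for an adjusted p under 0.05. The right panel has 21 filled symbols, 11 above and 10 below 0, and the left panel has 1, *Rictor*.

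Marker levels of other cell types moved with some members. The summed level of 9 skeletal muscle markers was 114 to 153 CPM in wild-type and 44.8 to 50.9 CPM in *Pole4*+/+ *Trp53*-/- MEFs, and 142 to 151 and 53.7 to 68.7 CPM in the corresponding *Pole4*-/- MEFs. Most of it was *Acta1* and *Des*, actin and intermediate filament genes of muscle, the 2 of 6 tested markers called lower in each background. The other 4 tested in *Pole4*+/+ MEFs, *Myod1*, *Myog*, *Myh3* and *Tnnt3*, had estimates above 0 (0.46 to 1.88, none called), so the median of the 6 was 1.08. In *Pole4*-/- MEFs *Myod1* (2.03) and *Myog* (0.65) were above 0, *Myh3* (-0.04) and *Tnnt3* (-1.51) were below, and none of these was called. *Myod1* and *Myog*, regulators of myogenesis, were at 1.45 CPM or less in each library and *Ckm* was at 0 in 4 of the 6 genotypes. Over the 18 libraries its log2 sum had an r of 0.92 with *Igfbp7* and 0.83 with *Pappa* (0.91 and 0.81 without both libraries that stood apart). The sum of 7 epithelial markers, 7.22 to 42.2 CPM, had an r of -0.82 with *Igfbp5*, -0.76 with *Igf1* and -0.71 with *Igfbp3* (-0.73, -0.71 and -0.62 without both). It was 10.52 to 16.73 CPM in *Pole4*-/- *Trp53*+/+ and 22.3 to 42.2 CPM in *Pole4*-/- *Trp53*-/- MEFs, the comparison in which 5 members fell. There 2 of 3 tested epithelial markers, the keratin genes *Krt8* and *Krt18*, were called higher (median of the 3, 2.04), whereas *Epcam* and *Cdh1* were at 0.332 CPM or less in each library of these genotypes. In *Pole4*+/+ MEFs the sum was 20.8 to 34.4 CPM with and 7.22 to 32.5 CPM without *Trp53*, and none was called. The sum of 10 fibroblast markers was 24890 to 30960 CPM in *Pole4*-/- *Trp53*+/+ and 13720 to 16520 CPM in *Pole4*-/- *Trp53*-/- MEFs, with an r of 0.78 with *Igfbp2* and 0.69 with *Igf1* (0.79 and 0.73 without both). Its markers did not move alike there, since *Col1a1*, *Col1a2*, *Col3a1*, *Fn1* and *Pdgfrb* were called lower, *Pdgfra* was called higher (23.3 to 66.3 CPM, 1.49, adjusted p = 0.0261), and *Vim* (-0.01) and *Thy1* (0.10) were not called. In *Pole4*+/+ MEFs *Pdgfra* was again called higher (2.52, adjusted p = 0.0108), and it was the one marker of the 10 called. The sum of 7 chondrocyte markers was 312 to 651 CPM in wild-type, 226 to 249 in *Pole4*+/+ *Trp53*-/-, 392 to 702 in *Pole4*-/- *Trp53*+/+ and 139 to 370 in *Pole4*-/- *Trp53*-/- MEFs. *Col2a1*, a cartilage collagen, carried that sum (486 and 179.9 CPM in *Pole4*+/+ MEFs with and without *Trp53*). The other 5 tested chondrocyte markers had estimates above 0 in *Pole4*+/+ MEFs, where none of the 6 was called (median 0.71). In *Pole4*-/- MEFs 3 of 6, *Col2a1*, *Comp* and *Col11a2*, were called lower (median -1.33). There *Col9a1* (-1.17) was not called, and *Sox9* (0.27) and *Acan* (1.26) were above 0 without a call. The sum of 7 neuronal markers was 77.5 to 97.2 CPM in *Pole4*-/- *Trp53*+/+ and 125 to 147 CPM in *Pole4*-/- *Trp53*-/- MEFs, with 3 of 5 tested markers called higher (*Tubb3*, *Stmn2* and *Elavl4*), and *Neurog2* was at 0 in all genotypes but *Pole4*-/- *Trp53*-/-, where it was at most 0.0454 CPM. It was 67.8 to 87.1 and 101 to 139 CPM in the corresponding *Pole4*+/+ MEFs, with none called. Macrophage markers summed to 4.57 to 48.6 CPM over all libraries. Endothelial markers summed to at most 6.17, cardiomyocyte markers to at most 5.67, erythroid markers to at most 1.86 and hepatocyte markers to at most 0.331 CPM. The r named here are the largest in size over all members and marker lists, and are given as descriptions. With the share of ribosomal RNA the members' r lay between -0.27 and 0.33, and with log10 total counts between -0.18 and 0.34. The part of cell composition in the members' differences was not tested.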

How the data were processed

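RNA of MEFs was sequenced as 18 libraries. The deposited table holds expected counts per gene that the authors made with STAR 2.5.2 and RSEM 1.3.0 on GRCm38. Tools and versions are credited to the submitters' processing notes, which also list DESeq2 1.10.1. Of the values 6.14% were not whole, and all were rounded. Groups follow the genotype labels. Genes were filtered by edgeR's filterByExpr over the 6 genotypes, TMM-scaled and fitted together (edgeR 4.0.16 in R 4.3.3, robust quasi-likelihood F-test, 12 residual degrees of freedom), with contrasts per comparison and Benjamini-Hochberg adjustment over the 15710 genes. A gene was called at an adjusted p under 0.05, and the SE was taken as the log2 fold change over the root of F. The procedure was tested on simulated data. CPM per kb divides by the merged exon length of GENCODE vM21, correlations are of log2 CPM (prior count 2), and promoter windows are RefSeq's.

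All 9 members are named. Outside the comparisons of *Trp53*-/- with *Trp53*+/+, single values are given for members at an unadjusted p under 0.05 and ranges for the rest, except for a few further values of *Igfbp7* and *Pappa* beside their levels. Of the pathway genes, those called in both *Trp53*-/- comparisons and up to 6 called in each other comparison are named, and further names were chosen after their values were seen. The members and the lists (pathway, fibroblast, skeletal muscle, chondrocyte, epithelium, macrophage, neuron, endothelium, cardiomyocyte, hepatocyte and erythroid) were chosen with earlier results of these data known. Alternatives tried were fitting by DESeq2 1.42.0, taking library totals as the sole scaling, no filter on low counts, the replicate number as a block, log2 *Xist* as a covariate, voom with quality weights (limma 3.58.1) and leaving out each library, and, chosen after seeing the data, leaving out both libraries that stood apart. Libraries of a genotype differed by more than sampling noise in each pair (chi-square per degree of freedom of 20.15 or more). The members with the fewest counts in a library were *Igfbp3* (79 to 1516), *Igfbp6* (98 to 939) and *Igf1* (148 to 1495).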

Additional observations from a re-analysis of the deposited data

Results flagged for a closer look

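*Igfbp3* drew attention because its libraries moved in opposite directions in the 2 *Pole4* backgrounds. All *Trp53*-/- libraries lay above all *Trp53*+/+ libraries in *Pole4*+/+ MEFs and below them in *Pole4*-/- MEFs, a pattern seen in this orientation in 0.318% of the 15710 genes. *Igfbp3* was picked by this same pattern, so the share is a description and no test of the gene. The difference between the 2 effects was -3.01 ± 0.70 on the log2 scale and did not pass the threshold of edgeR's quasi-likelihood test without a replicate block (adjusted p = 0.0524). It was -2.20 (adjusted p = 0.0845) without *Pole4*+/+ *Trp53*-/- replicate 1, and the *Pole4*+/+ libraries without it (13.6 and 13.02 CPM) still lay above wild type (4.08 to 10.3 CPM).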

How the results depend on the processing

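With all libraries kept, the members' values given singly in the text that had been called were called again in 46 recomputations and not in 14. Of such values not called, 142 remained so in the same direction, 24 became called and 2 reversed. The number of members called on loss of *Trp53* in *Pole4*-/- MEFs was 5, and 2 with library totals alone, 3 without the filter on low counts and 6 by voom. In *Pole4*+/+ MEFs it was 2, and 4 by DESeq2, 3 by voom, 3 with the replicate block and 0 with totals alone. For heterozygous loss in *Pole4*-/- MEFs it was 1, and 0 with totals alone, without the filter and with the *Xist* covariate, and 3 by voom, and in *Pole4*+/+ MEFs it was 0, and 1 by DESeq2 and 4 by voom. For loss of *Pole4* it was 2 in *Trp53*+/+ cells, and 1 with totals alone and without the filter, 0 with the *Xist* covariate and 6 by voom. In *Trp53*+/- cells it was 0, and 1 by voom, and as a mean over genotypes it was 0, and 3 by DESeq2, 3 by voom and 2 without both libraries that stood apart. For the interaction it was 0, and 4 by DESeq2 and 1 by voom.

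With the replicate number as a block the interaction had 1 member called, *Igfbp3* (-3.11, adjusted p = 0.0398), and *Igfbp3* in *Pole4*+/+ MEFs was called too (1.56, 0.0449). Nothing in the labels says that a number marks a shared embryo or batch. The correlation of deviations had a median of 0.0929 over 45 same-numbered pairs, with 21 over 0.1, and of -0.0565 over 90 pairs of different number, with 25 over 0.1. These correlations do not decide whether the numbers mark a shared batch, since a batch need not make every pair correlate. The fit without the block was kept, and the blocked values are given here. Leaving out single libraries gave 2 to 4 members called for loss of *Trp53* in *Pole4*-/- and 1 to 3 in *Pole4*+/+ MEFs, 0 to 1 for loss of *Pole4* in *Trp53*+/+ cells, 0 to 2 for its mean, 0 to 4 for the interaction and 0 in the other comparisons. *Igf1* on loss of *Trp53* in *Pole4*+/+ MEFs (0.36, and -0.42 to 0.76 without single libraries) reversed to -0.03 by voom, to -0.42 without *Pole4*+/+ *Trp53*-/- replicate 1 and to -0.39 without both libraries that stood apart. *Igfbp2* there (-0.37, and -0.80 to 0.01) reversed to 0.01 without wild-type replicate 1, and *Igfbp7* on loss of *Pole4* in *Trp53*-/- cells to -0.05 with totals alone. Totals alone took the median of all genes as far as -0.44, on loss of *Pole4* in *Trp53*-/- cells, from -0.02. Members with estimates above 0 then went from 4 of 9 to 0 in that comparison, from 2 to 6 for heterozygous loss of *Trp53* in *Pole4*-/- MEFs (median of all genes 0.29) and from 7 to 3 for the mean effect of *Pole4* loss (-0.24), while the numbers above the median of all genes stayed at 4, 2 and 7. The causes of these changes were not tested.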
